A study of Mus musculus with 12 samples.

Results

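Loricrin (Lor), involucrin (Ivl), cornifelin (Cnfn), envoplakin (Evpl) and periplakin (Ppl) are proteins of the cornified envelope, and their 5 genes were followed through 12 RNA-seq libraries of mouse skin. The genes were chosen by name, with earlier results of these data known, and all 5 were found by symbol among the 47643 gene IDs measured. Whole skin and epidermis came from 10-week-old C57BL/6 mice in 4 groups of 3 libraries. Skin KO and Epidermis KO came from ADAM17 conditional knockout mice, which carried Sox9-Cre with ADAM17fl/fl alleles, and Skin WT and Epidermis WT came from wild type mice. ADAM17 is a membrane protease that sheds growth factor and cytokine precursors. Sox9-Cre acts in cells that express or have expressed Sox9, which in skin are those of the hair follicle lineage, so other cells can keep an intact gene. Nothing in the labels ties the 3 libraries of a group to different mice. The p-values therefore reflect the spread among these libraries, and in the WT groups that spread may be technical. In the KO groups the Y-linked and Xist reads given below differed between libraries, so these were not all repeats of the same sample. Whether each came from a separate mouse is not given.

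The cornified envelope replaces the plasma membrane of keratinocytes as they die and form the outer layer of the skin. Envoplakin and periplakin, which pair with each other and belong to the plakins, and involucrin are laid down early under the membrane, where transglutaminases crosslink them into a scaffold. Loricrin, a glycine-rich protein made late in the granular layer, is then added in bulk and makes up most of the mature envelope, together with small proline-rich (Sprr) and late cornified envelope (Lce) proteins. Cornifelin is a small cysteine-rich protein of the same structure.

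Lor (ENSMUSG00000043165.7) lies on mouse chromosome 3 at 92080271 to 92083142 and Ivl (ENSMUSG00000049128.7) on the same chromosome at 92570902 to 92573735 (GRCm38, also called mm10, with GENCODE M21 annotation). They lie 487759 bases apart, and 31 genes stand between them, 17 of them named Sprr. Cnfn (ENSMUSG00000063651.11) is on chromosome 7 at 25367620 to 25369724, Evpl (ENSMUSG00000034282.3) on chromosome 11 at 116220559 to 116238077 and Ppl (ENSMUSG00000039457.3 in the files) on chromosome 16. The Ppl position, 5086291 to 5132421, is that of version ENSMUSG00000039457.4 in GENCODE M21, whose transcript has 6217 bases against 6277 in the files. All 5 are on the minus strand, and no member overlaps another annotated gene. Ppl ends 1 base from Ubn1, which lies on the plus strand, and the strand setting of the counting is not given in the sources used here.

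The 250 bases before the annotated start are shown for the 3 members called between the genotypes in skin, from the RefSeq promoter table (GRCm38.p6). Capitals mark TGANTCA, the letters bound by AP-1 factors, searched on both strands, and TATAAA, searched on both strands. The windows are chr3:92083143-92083392, chr3:92573736-92573985 and chr7:25369725-25369974, all on the minus strand and written 5′ to 3′.
Lor: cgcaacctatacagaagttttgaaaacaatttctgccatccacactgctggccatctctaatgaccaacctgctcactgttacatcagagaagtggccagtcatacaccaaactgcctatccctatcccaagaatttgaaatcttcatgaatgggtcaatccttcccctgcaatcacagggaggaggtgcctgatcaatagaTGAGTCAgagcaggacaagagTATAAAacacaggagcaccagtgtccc
Ivl: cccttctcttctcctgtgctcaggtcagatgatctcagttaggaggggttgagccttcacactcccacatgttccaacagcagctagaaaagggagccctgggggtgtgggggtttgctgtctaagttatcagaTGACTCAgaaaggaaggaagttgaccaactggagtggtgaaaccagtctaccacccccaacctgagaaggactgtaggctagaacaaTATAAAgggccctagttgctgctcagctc
Cnfn: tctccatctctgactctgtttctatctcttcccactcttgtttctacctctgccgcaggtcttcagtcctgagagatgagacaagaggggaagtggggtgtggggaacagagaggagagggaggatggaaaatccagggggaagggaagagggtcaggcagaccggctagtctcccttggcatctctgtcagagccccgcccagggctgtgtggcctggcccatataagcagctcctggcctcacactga
Lor held TGAGTCA with its first base 48 bases before the start and TATAAA 27 bases before it. Ivl held TGACTCA 116 bases and TATAAA 29 bases before the start. Neither set of letters was in the Cnfn window. Of 32851 promoter windows of this length, 6.75% held TGANTCA and 12.37% held TATAAA, and 2.31% held TATAAA on the sense strand within the last 40 bases. These matches describe the sequence and were not tested as binding sites.

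Cnfn has 2 annotated transcripts, which the results below separate. The long transcript (698 bases, 5 exons, 124 codons) has an exon of 193 bases at 25368915 to 25369107 that the short one (524 bases, 4 exons, 111 codons) lacks. Its coding sequence starts 39 bases earlier and in the same frame, which adds 13 codons. The starts of both coding sequences are shown from the GENCODE M21 transcript sequences, with the start codon of each in capitals. The second capital ATG of the long one is the start of the short one.
Cnfn long: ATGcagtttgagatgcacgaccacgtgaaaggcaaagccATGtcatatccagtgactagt
Cnfn short: ATGtcatatccagtgactagt
Lor, Ivl, Evpl and Ppl had 1 transcript each in the files.

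Library totals ran from 12208522 to 16743144 expected counts, and 3 counts correspond to 0.179 to 0.246 CPM. Levels below are CPM scaled by edgeR's TMM factors of all 12 libraries, given as mean ± SD over n = 3 libraries. Fold changes come from edgeR's quasi-likelihood test on the 6 libraries compared, with p-values adjusted by Benjamini and Hochberg's method across every tested gene, and can differ slightly from the ratio of these means. Adam17 was at 48.8 ± 6.16 CPM in Skin KO against 87.5 ± 13.3 CPM in Skin WT (adjusted p = 0.00797), and at 51.3 ± 5.94 CPM in Epidermis KO against 81.6 ± 4.15 CPM in Epidermis WT (adjusted p = 0.00213, and 0.0615 with limma on log2(TPM + 1)). Reads of 4 Y-linked genes numbered 1728, 0 and 1034 in Skin KO 1 to 3 and 1781, 213 and 679 in Epidermis KO 1 to 3, and 0 in every WT library. Xist, the RNA of the inactive X, was at 0, 430 and 319 reads in Skin KO and 0, 2511 and 2050 in Epidermis KO, so Skin KO 3, Epidermis KO 2 and Epidermis KO 3 held both. In epidermis Y-linked reads were in all 3 KO libraries, and there the sex of the mice and the genotype cannot be told apart. In skin the Adam17 call ended with Skin KO 2, the library without Y-linked reads, as the only KO library (log2 fold change -0.63, adjusted p = 0.17, against -0.75 with all 3) and with the share of Y-linked counts as a covariate (adjusted p = 0.0805).

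The cell makeup of the libraries differed between the genotypes as well. All markers of each list had reads in every group. The 12 keratinocyte markers summed to 21824 to 26979 CPM in Skin KO against 15992 to 17882 CPM in Skin WT, and to 18089 to 23773 CPM in Epidermis KO against 31270 to 38136 CPM in Epidermis WT. The 7 skeletal muscle markers summed to 444 to 2410 CPM in Skin KO and 7015 to 57019 CPM in Skin WT, the 6 adipocyte markers to 68.9 to 135 CPM and 549 to 928 CPM. Some of the 8 basal layer markers are also keratinocyte markers, and Dst is also a plakin given below. The 8 summed to 17003 to 21662 CPM in Skin KO and 16135 to 17890 CPM in Skin WT. Of these 8, however, 4 fell in skin and 1 rose (median log2 fold change -0.47). The 1 that rose was Krt14, at 9617 ± 1648 CPM in Skin KO against 3638 ± 358 CPM in Skin WT. In epidermis the 8 summed to 12207 to 16425 CPM in KO and 30604 to 35834 CPM in WT, and 7 of 8 fell. Hair shaft markers summed to 242 to 6107 CPM in Skin KO and 4.49 to 514 CPM in Skin WT, and to 86.2 to 811 CPM in Epidermis KO and 13.2 to 236 CPM in Epidermis WT. Fibroblast markers in skin summed to 735 to 1682 CPM in KO and 2075 to 2815 CPM in WT. The 8 leukocyte markers summed to 9297 to 9923 CPM in Skin KO, 708 to 855 CPM in Skin WT, 3841 to 12121 CPM in Epidermis KO and 231 to 297 CPM in Epidermis WT. Most of the KO sums came from S100a8 and S100a9, which keratinocytes can also express, at 3231 and 5405 CPM in Skin KO. In skin Ptprc, Cd3e, Lyz2 and Itgam did not pass, and Cd74 and Cxcr2 rose. In epidermis 7 of 8 leukocyte markers rose, all but Cd3e. The part of these markers in the results below was not tested beyond the scale of keratinocyte markers given there. In the epidermis libraries muscle and adipocyte markers summed to at most 18.7 CPM and 9.32 CPM, and the 7 fibroblast markers to 61.5 to 119 CPM in KO and 5.96 to 10.5 CPM in WT. In bulk samples, fewer cells of a type and less RNA per cell cannot be told apart.

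Whole skin was compared to ask how the deletion of Adam17 changes these transcripts. Lor fell in Skin KO, Cnfn and Ivl rose, and Evpl and Ppl did not pass the test. The loss of Lor and the gain of Cnfn both passed with each library left out in turn, and with Skin KO 2 as the only KO library, assumed to vary like the WT ones (Lor log2 fold change -2.67, adjusted p = 0.0358, and Cnfn 2.13, adjusted p = 0.0192). In all, 3 of the 5 members were called, 2 higher and 1 lower, beside 45.5% of the 14906 genes tested (22.2% higher and 23.3% lower).

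Lor stood at 541, 577 and 498 CPM in Skin KO 1 to 3, against 4802, 4615 and 2460 CPM in Skin WT 1 to 3. The highest KO library was below the lowest WT library, and the KO libraries lay closer together than the WT ones. Lor was 6.92-fold lower in KO (log2 fold change -2.79, SE 0.30, adjusted p = 0.00068), and 576 of the 14906 genes had a lower log2 fold change.

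Ivl stood at 247, 458 and 336 CPM in Skin KO, against 214, 200 and 185 CPM in Skin WT. The groups did not overlap, with Skin KO 1 close to Skin WT 1. Ivl rose 1.85-fold (log2 fold change 0.89, SE 0.23, adjusted p = 0.0183). That call ended without Skin KO 2 (log2 fold change 0.62, adjusted p = 0.0562), without Skin KO 3 (adjusted p = 0.0501) and without Skin WT 3 (adjusted p = 0.0654), and over all 6 such fits the adjusted p ran from 0.00825 to 0.0654.

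Cnfn stood at 574, 571 and 507 CPM in Skin KO, against 169, 155 and 100 CPM in Skin WT. Every KO library was far above every WT library. Cnfn rose 4.14-fold (log2 fold change 2.05, SE 0.22, adjusted p = 0.000718).

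Evpl stood at 413, 356 and 379 CPM in Skin KO, against 334, 413 and 344 CPM in Skin WT, and the groups overlapped (log2 fold change 0.17, SE 0.14, adjusted p = 0.366). Ppl stood at 476, 447 and 441 CPM in Skin KO, against 441, 731 and 664 CPM in Skin WT, and its groups overlapped through Skin WT 1 alone (log2 fold change -0.33, SE 0.20, adjusted p = 0.206). Without that library Ppl passed (log2 fold change -0.54, adjusted p = 0.00849), while over the 6 fits that each left out 1 library the adjusted p ran from 0.00849 to 0.497. Thus 3 of 5 members had groups that did not overlap, beside 58% of genes tested.

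**Figure D1:**
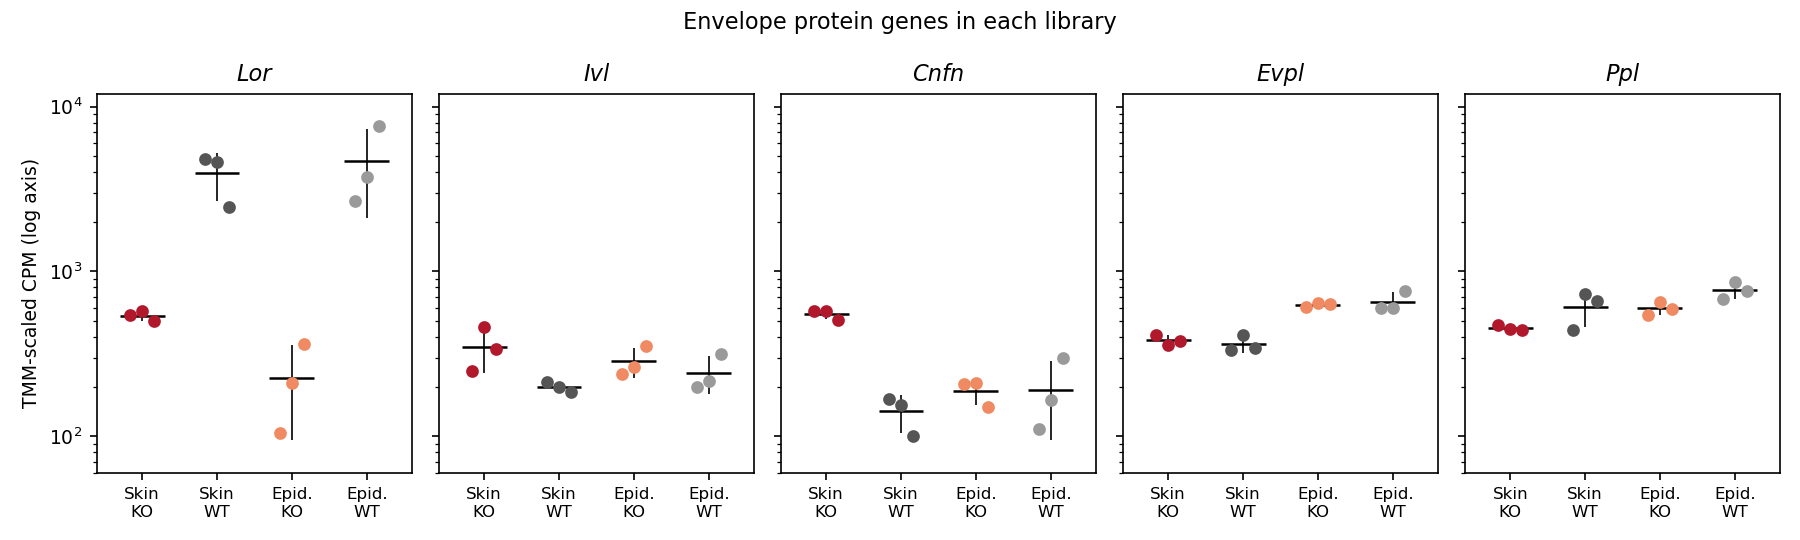
TMM-scaled CPM of each gene in every library, on a log axis shared by the panels, with KO left of WT in each tissue. Points are libraries 1 to 3 from left to right, the horizontal bar is the group mean and the vertical line the SD. Lor lies below WT in the KO libraries of both tissues, and Cnfn stands out in Skin KO, where it averaged 551 CPM.

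In epidermis Lor fell 20.5-fold, and it was the only member called. Ivl, Cnfn, Evpl and Ppl did not pass, so 1 of 5 members was called, beside 51.5% of the 13632 genes tested (26.2% higher and 25.3% lower). Lor and Ppl had groups that did not overlap, beside 62% of genes tested.

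Lor stood at 104, 210 and 363 CPM in Epidermis KO 1 to 3, against 2688, 3758 and 7622 CPM in Epidermis WT 1 to 3. The groups were well apart, though each spanned a wide range, 3.48-fold between the lowest and highest KO library and 2.84-fold in WT. Lor was 20.5-fold lower in KO (log2 fold change -4.36, SE 0.55, adjusted p = 0.000342), and 45 of the 13632 genes had a lower log2 fold change. With each library left out in turn the log2 fold change ran from -4.88 to -3.83 and the adjusted p was at most 0.00195. With the share of Y-linked counts as a covariate it was -3.61 (adjusted p = 0.00992).

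Ivl stood at 239, 262 and 351 CPM in Epidermis KO, against 198, 217 and 314 CPM in Epidermis WT, and the groups overlapped (log2 fold change 0.24, SE 0.21, adjusted p = 0.357). Cnfn stood at 207, 209 and 150 CPM in Epidermis KO, against 110, 166 and 297 CPM in Epidermis WT, with the KO values inside the WT range. Its log2 fold change was -0.00 (SE 0.31, adjusted p = 0.998) and changed sign with the scaling and the library left out, from -0.29 without Epidermis WT 1 to 0.46 without Epidermis WT 3.

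For the scaffold pair, Evpl stood at 605, 641 and 632 CPM in Epidermis KO, against 596, 599 and 761 CPM in Epidermis WT, with the KO values inside the WT range (log2 fold change -0.04, SE 0.14, adjusted p = 0.812). Ppl stood at 546, 651 and 594 CPM in Epidermis KO, against 681, 858 and 763 CPM in Epidermis WT. Every KO library of Ppl was below every WT library, but the difference missed the threshold (log2 fold change -0.35, SE 0.14, adjusted p = 0.0679). DESeq2 called it (adjusted p = 0.0352). Over all alternatives with the full set of libraries its adjusted p ran from 0.0352 to 0.463.

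The knockout effects were then compared between the tissues in 1 fit of all 12 libraries, with the difference taken as epidermis minus skin. Cnfn was the only member whose effect differed, at -1.98 on the log2 scale (SE 0.44, adjusted p = 0.0129), which counts as 1 of 5 members beside 16.5% of the 15394 genes tested (10.1% higher and 6.36% lower). For Lor the difference was -1.50 (SE 0.64, adjusted p = 0.126), which did not pass. Ivl (-0.57, SE 0.34, adjusted p = 0.255), Evpl (-0.13, SE 0.19, adjusted p = 0.653) and Ppl (0.07, SE 0.25, adjusted p = 0.876) did not pass either. These sizes depend on the scale: relative to the keratinocyte markers of each library, described below, Cnfn was 1.47 higher in KO in skin and 0.79 higher in epidermis, and Evpl and Ppl had KO effects of opposite sign in the tissues. The difference between tissues was not tested on that scale.

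**Figure D2:**
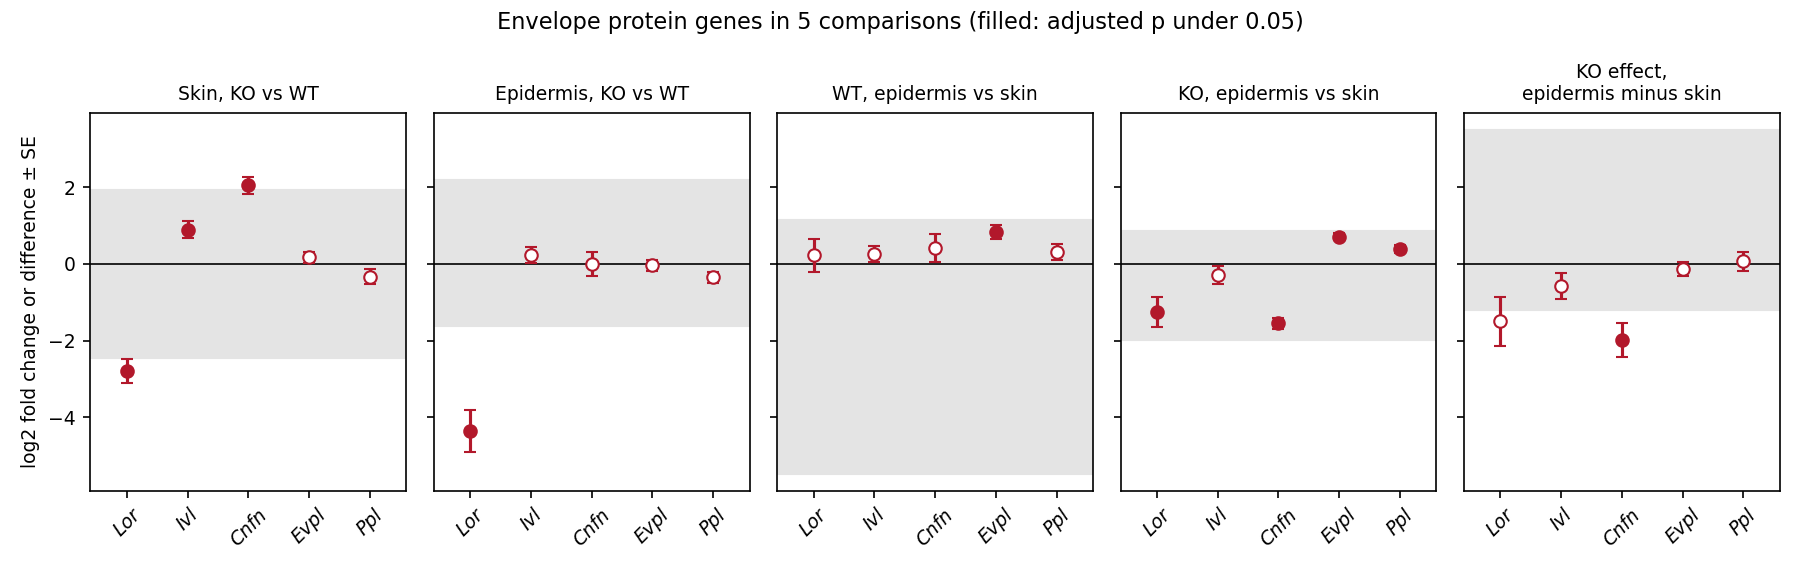
Log2 fold change ± SE of each gene in 4 comparisons, and in the right panel the difference of the KO effects between tissues. Filled points passed an adjusted p of 0.05, and the grey band runs from the 5th to the 95th percentile of all genes tested. Lor lies below the band in both KO comparisons, and Cnfn lies above it in skin. In the right panel both Lor and Cnfn lie below the band, and only Cnfn passed.

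Between the tissues within a genotype, with epidermis over skin, the scaffold gene Evpl was higher in epidermis in both genotypes. Among WT libraries Evpl was at 652 ± 93.9 CPM in epidermis and 364 ± 42.9 CPM in skin (log2 fold change 0.82, SE 0.18, adjusted p = 0.00758), and it was the only member called, beside 42.9% of the 14596 genes tested. It was also the only one whose groups did not overlap, beside 56.5%. Lor (log2 fold change 0.22, adjusted p = 0.701), Ivl (0.26, adjusted p = 0.342), Cnfn (0.41, adjusted p = 0.399) and Ppl (0.31, adjusted p = 0.27) did not pass. Among KO libraries 4 of 5 members were called, beside 29.9% of the 14117 genes tested, and the same 4 had groups that did not overlap, beside 47.9%. Cnfn was at 188 ± 33.4 CPM in Epidermis KO and 551 ± 37.7 CPM in Skin KO (log2 fold change -1.55, SE 0.14, adjusted p = 0.0016). Lor was at 226 ± 130 CPM in Epidermis KO and 539 ± 39.3 CPM in Skin KO (log2 fold change -1.26, SE 0.39, adjusted p = 0.0472). Of the lists given below, 20 of 21 Lce and 8 of 14 Sprr genes were also lower in Epidermis KO, and 0 were higher. Of all genes 15.9% were lower and 14.1% higher. Of 23 envelope and granular layer partners 5 were lower and 6 higher. Between WT tissues 13 of 16 Lce genes and 1 of 7 Sprr genes were lower in epidermis, and 0 higher, beside 25.3% of all genes lower.

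Evpl was at 626 ± 18.6 CPM in Epidermis KO and 383 ± 28.4 CPM in Skin KO (log2 fold change 0.71, SE 0.09, adjusted p = 0.00321). Ppl was at 597 ± 52.4 CPM in Epidermis KO and 455 ± 18.5 CPM in Skin KO (log2 fold change 0.39, SE 0.10, adjusted p = 0.0241). Ivl did not pass (log2 fold change -0.29, SE 0.24, adjusted p = 0.388). The calls of Lor and Ppl each ended in 4 of 6 fits without 1 library. On deposited TPM the call of Evpl ended in both genotypes (adjusted p = 0.25 in WT and 0.257 in KO), and the median of all genes moved to -0.44 in WT and -0.38 in KO, against -0.07 and 0.01 in the fits above.

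The order of the groups differed from gene to gene. For Lor the means ran from Epidermis WT (4690 ± 2596 CPM) and Skin WT (3959 ± 1301 CPM), which overlapped, to Skin KO and then Epidermis KO, which overlapped with neither WT group nor each other. Cnfn was highest in Skin KO, and the other 3 groups overlapped at means of 141 to 191 CPM. Ivl means ran from 347 ± 106 CPM in Skin KO over 284 ± 59.5 CPM in Epidermis KO and 243 ± 62.5 CPM in Epidermis WT to 200 ± 14.8 CPM in Skin WT, and neighbours in that order overlapped. For Evpl both epidermis groups lay above both skin groups, with the genotypes overlapping within each tissue. Ppl means ran from 767 ± 88.7 CPM in Epidermis WT over 612 ± 152 CPM in Skin WT and 597 ± 52.4 CPM in Epidermis KO to 455 ± 18.5 CPM in Skin KO, and only the last of these stood clear of its neighbour.

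Deposited TPM, which divide by transcript length, allow the members to be ranked against each other. In KO tissue Cnfn was the most abundant of the 5, with 1785 ± 82 TPM or 66.4% of their summed TPM in skin and 432 ± 55.2 TPM or 46.5% in epidermis. Lor held 453 ± 22.6 TPM or 16.8% in Skin KO and 145 ± 99.8 TPM or 15.6% in Epidermis KO, where it lay next to Ivl at 160 ± 57.3 TPM. In WT tissue Lor was the most abundant, with 3381 ± 955 TPM or 80.7% in skin and 2686 ± 1231 TPM or 78.5% in epidermis, and Cnfn held 10.1% and 11.4%. Evpl and Ppl were the 2 least abundant members in every group, between 82.4 and 144 TPM on average. The summed TPM of the 5 genes was 2687 ± 131 in Skin KO against 4191 ± 1050 in Skin WT, and 929 ± 199 in Epidermis KO against 3424 ± 1409 in Epidermis WT, with no overlap between genotypes in either tissue.

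Ratios of counts within a library do not depend on how libraries are scaled. The log2 ratio of Cnfn to Lor was 0.09, -0.01 and 0.03 in Skin KO, against -4.83, -4.90 and -4.62 in Skin WT, so that Cnfn and Lor had nearly equal counts in all 3 Skin KO libraries. In epidermis it was 0.99, -0.01 and -1.28 in KO, against -4.61, -4.50 and -4.68 in WT, with a wide spread among the KO libraries and a narrow one in WT. The ratio was 28.1-fold higher in Skin KO than in Skin WT and 22.6-fold higher in Epidermis KO than in Epidermis WT. Lor is the divisor here and in the ratio of Ivl to Lor, so its fall given above is part of both. In epidermis the log2 fold change was -4.36 for Lor, -0.00 for Cnfn and 0.24 for Ivl.

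The log2 ratio of Ivl to Lor was -1.13, -0.33 and -0.57 in Skin KO, against -4.49, -4.53 and -3.74 in Skin WT, and 1.19, 0.32 and -0.05 in Epidermis KO, against -3.76, -4.12 and -4.60 in Epidermis WT. It was 11.9-fold higher in KO in skin and 25.1-fold higher in epidermis. For the scaffold pair the log2 ratio of Evpl to Ppl was -0.20, -0.33 and -0.22 in Skin KO, against -0.40, -0.82 and -0.95 in Skin WT. The groups did not overlap in skin, and in epidermis they did (KO minus WT 0.31). An exact two-sided permutation test gave p = 0.1, the smallest that 3 against 3 libraries allow, for these ratios in both tissues, except Evpl to Ppl in epidermis with p = 0.2.

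**Figure D3:**
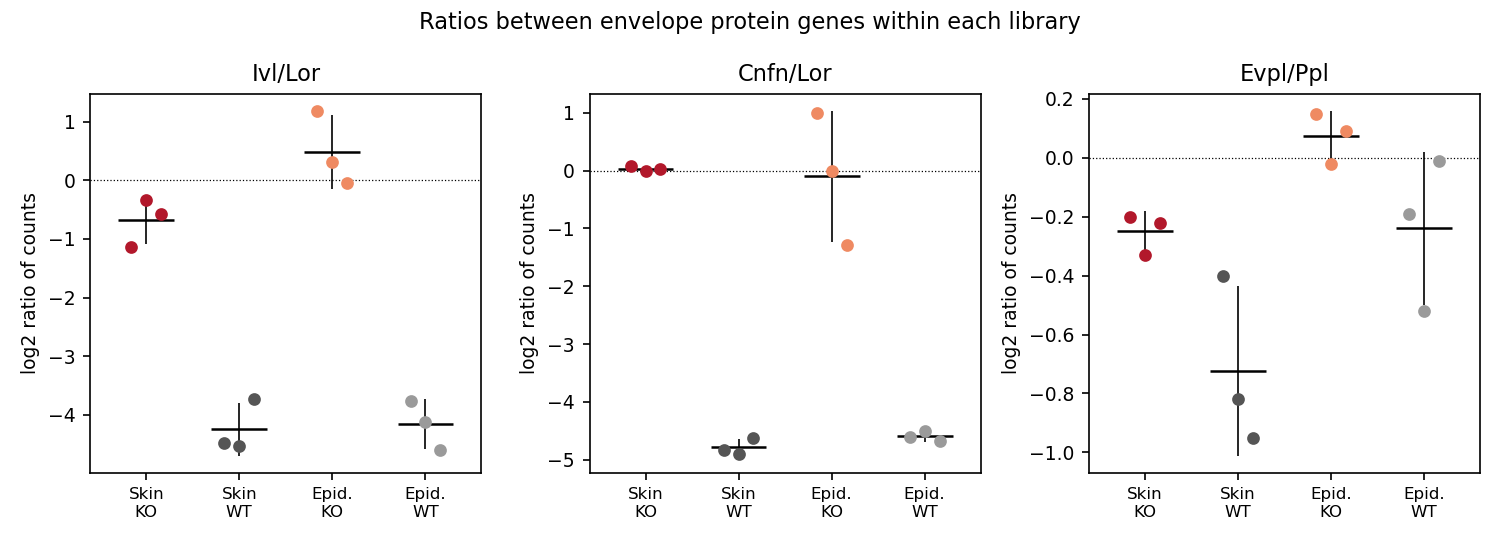
Log2 ratio of expected counts of 2 genes within each library, with KO left of WT in each tissue and a dotted line at equal counts. Points are libraries 1 to 3, with the group mean and SD, and the vertical axes differ between panels. Both ratios to Lor are higher in every KO library than in any WT library of its tissue, and Cnfn to Lor lies between -0.01 and 0.09 in Skin KO.

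Levels were also set against the summed counts of the 12 keratinocyte markers of the same library, a choice made after the data were seen. Krt5 and Krt14 made up 56.8% to 74.1% of these counts, and the sum itself differed between genotypes in opposite directions in the 2 tissues. On this scale Lor remained lower in KO with no overlap, by a log2 difference of -3.35 in skin and -3.71 in epidermis. Cnfn was 1.47 higher in Skin KO with no overlap and 0.79 higher in Epidermis KO with overlap. Ivl was 0.22 higher in Skin KO with overlapping groups, while in epidermis it was 0.94 higher in KO with no overlap. Evpl differed by -0.45 in skin and 0.65 in epidermis, both with no overlap, and Ppl by -0.93 in skin with no overlap and 0.34 in epidermis with overlap. The exact two-sided permutation p was 0.1, the smallest possible, where groups did not overlap.

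The transcripts of Cnfn shifted with the genotype in both tissues. The files give each gene's length weighted by the estimated shares of its transcripts, from which the share of the long Cnfn transcript follows. It was 47.1%, 46.2% and 46.9% of Cnfn TPM in Skin KO, against 64.1%, 65.1% and 63.8% in Skin WT. In epidermis it was 42.3%, 47.6% and 43.7% in KO, against 59.5%, 58.5% and 62.8% in WT. No KO library reached any WT library, and the mean difference was -17.6 percentage points in skin and -15.8 in epidermis (exact two-sided permutation test, p = 0.1 in each, the smallest possible). A deposited length that was shorter in KO with no overlap was found for 8.35% of 10549 genes with more than 1 transcript in skin and for 9.88% of 9687 in epidermis. In either direction, lengths did not overlap for 15.7% of these genes in skin and for 25.3% in epidermis.

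Split into its transcripts, Cnfn had 951 ± 47.3 TPM of the short form in Skin KO against 151 ± 25.5 TPM in Skin WT, 6.28-fold more. The long form had 835 ± 36.1 TPM in Skin KO against 274 ± 54.6 TPM in Skin WT, 3.05-fold more. In epidermis the short form was at 239 ± 18.4 TPM in KO against 153 ± 54.4 TPM in WT, with no overlap, and the long form at 193 ± 37 TPM in KO against 237 ± 102 TPM in WT, with overlap (exact permutation test, p = 0.7). The log2 difference of the long form in epidermis was -0.22, and 0.10 without Epidermis WT 3. The difference between length and effective length, which reflects the fragment length, was 195 ± 3.42 bases in Skin KO against 182 ± 8.26 bases in Skin WT and 189 ± 2.57 bases in Epidermis KO against 181 ± 5.51 bases in Epidermis WT, without overlap, and its part in the estimated shares was not tested.

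**Figure D4:**
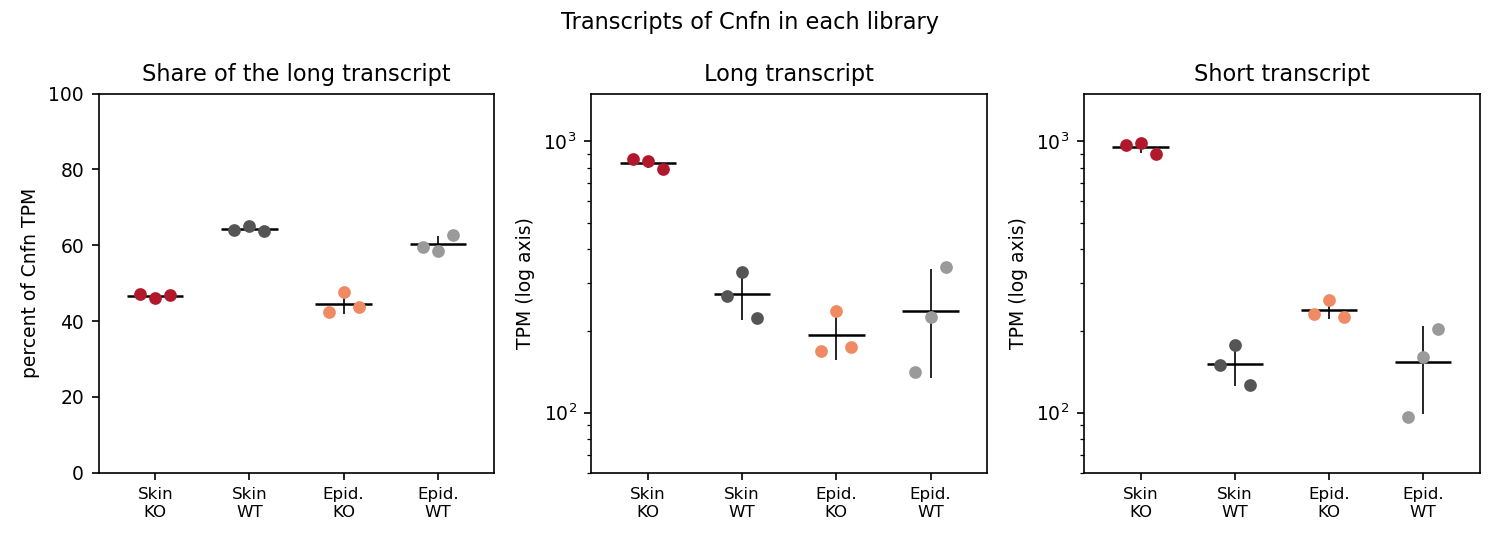
Share of the long Cnfn transcript in percent of Cnfn TPM, and TPM of the long and the short transcript on log axes, in each library with KO left of WT. Points are libraries 1 to 3, with the group mean and SD. The share lies between 42.3% and 47.6% in all KO libraries and between 58.5% and 65.1% in all WT libraries, and the short form reaches 897 to 987 TPM in Skin KO.

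Related genes are given by list, and each count stands beside the share of all genes called, which was 22.2% higher and 23.3% lower in skin (45.5% in all) and 26.2% higher and 25.3% lower in epidermis (51.5% in all). Of 5 tested transglutaminases, which crosslink these proteins, 3 rose and 1 fell in skin (median log2 fold change 1.68, all genes -0.00), and 4 rose and 0 fell in epidermis (median 2.01, all genes 0.00). Tgm1, the membrane-bound enzyme of keratinocytes, was at 349 ± 55.9 CPM in Skin KO against 116 ± 9.91 CPM in Skin WT (adjusted p = 0.00049) and at 221 ± 51.1 CPM in Epidermis KO against 124 ± 20.9 CPM in Epidermis WT (adjusted p = 0.00647). Tgm3, the epidermal transglutaminase, rose 22.2-fold in skin (adjusted p = 0.000987) and 10.4-fold in epidermis (adjusted p = 0.000165). For Tgm5 the increase was 1.68-fold in skin (adjusted p = 0.00787, and 0.0701 with limma on log2(TPM + 1)) and 2.55-fold in epidermis (adjusted p = 0.00166). Tgm2, the tissue transglutaminase that other cell types express as well, fell 3.53-fold in skin (adjusted p = 0.00669, ended with the share of Y-linked counts as a covariate, adjusted p = 0.051) and rose 4.98-fold in epidermis (adjusted p = 0.0138). In epidermis the call of Tgm1 ended with that covariate (adjusted p = 0.0834) and that of Tgm2 with limma-voom (adjusted p = 0.0567) or without Epidermis WT 2 (adjusted p = 0.0519).

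Among 4 plakin relatives of Evpl and Ppl, 0 rose and 2 fell in skin (median -0.65), and 1 rose and 1 fell in epidermis (median 0.21). Counted in either direction, these were near the shares of all genes called. Dst, the hemidesmosomal plakin dystonin, fell 4.05-fold in skin (adjusted p = 0.0025) and 4.16-fold in epidermis (adjusted p = 0.000444). Plec, plectin, fell 1.99-fold in skin (adjusted p = 0.00351). Dsp, the desmosomal plakin desmoplakin, was at 4384 ± 251 CPM in Epidermis KO against 2857 ± 606 CPM in Epidermis WT (adjusted p = 0.0226), a call that ended without Epidermis KO 2, Epidermis KO 3 or Epidermis WT 1 (adjusted p = 0.0648, 0.0651 and 0.0634). Of the desmosomal plaque and cadherin genes, to which the plakins attach, 2 of 11 rose and 1 fell in skin (median 0.44). In epidermis 6 of 10 rose and 0 fell (median 0.52). Of all genes 22.2% were higher and 23.3% lower in skin, and 26.2% were higher and 25.3% lower in epidermis. In skin 5 of the 11 were called with the replicate number as a block, 5 with limma-voom, 8 by DESeq2 and 6 without Skin WT 1. Fewer were called with Skin KO 2 as the only KO library. The number of all genes called moved with the setting too, up to 7482 in the alternatives, against 6780. With 1 library left out it ran from 4926 to 7770. The 11 genes were not set against all genes within each fit. The desmoglein Dsg1b rose 2.88-fold in skin (adjusted p = 0.0115) and 6.24-fold in epidermis (adjusted p = 7.89e-05), and Dsg1a fell 2.66-fold in skin (adjusted p = 0.00524). In epidermis the desmocollin Dsc1 rose 3.56-fold (adjusted p = 0.00125) and the desmoglein Dsg3 3.11-fold (adjusted p = 0.000499). The skin calls of Plec, Dsg1b and Dsg1a ended with Skin KO 2 as the only KO library (adjusted p = 0.0601, 0.0639 and 0.0768).

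Other envelope and granular layer proteins went both ways. Of 23 tested partners 9 rose and 8 fell in skin (median 0.29), and 8 rose and 9 fell in epidermis (median -0.10). With Skin KO 2 as the only KO library 10 of the 23 were called in skin, in a fit that called 2658 genes in all. Casp14, the caspase that processes filaggrin, rose 7.86-fold in skin (adjusted p = 0.000152) and 7.21-fold in epidermis (adjusted p = 1.03e-05). Filaggrin itself (Flg) rose 4.73-fold in skin (adjusted p = 0.000218). Repetin (Rptn) was at 1566 ± 416 CPM in Skin KO against 6.37 ± 3.1 CPM in Skin WT, and at 350 ± 52.4 CPM in Epidermis KO against 1.57 ± 0.374 CPM in Epidermis WT. Stfa1, a stefin, was at 502 ± 81.2 CPM in Skin KO against 1.25 ± 0.728 CPM in Skin WT, and Stfa3 at 3185 ± 1563 CPM in Epidermis KO against 9.1 ± 3.06 CPM in Epidermis WT. The filaggrin relative Flg2 shared the direction of Lor, named here after its values were seen, and fell 29.4-fold in skin (adjusted p = 0.000663) and 15-fold in epidermis (adjusted p = 0.00122). It was not alone among the partners that fell. Kprp fell 3.97-fold in skin and 7.73-fold in epidermis, and Crct1 2.02-fold and 7.63-fold. Sbsn, Dmkn and S100a10 were called lower in both tissues too.

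Of the Sprr genes, 13 of 14 tested rose in skin and 12 of 13 in epidermis, and 0 fell, with a median log2 fold change of 8.90 in skin (7.84 with genes of 3 counts or fewer in a group at their bound) and 7.13 in epidermis. Sprr2a1 was at 102 ± 13.9 CPM in Skin KO against 1.27 ± 0.271 CPM in Skin WT, and Sprr2a2 at 8000 ± 2782 CPM in Epidermis KO against 57.7 ± 22.2 CPM in Epidermis WT. The Sprr2 genes are near-identical copies, so their separate values are uncertain. Of 21 Lce genes 7 rose and 8 fell in skin (median -0.13), and 7 rose and 11 fell in epidermis (median -1.09). All 6 Lce3 genes and Lce1g were the ones that rose in each tissue, and those that fell were Lce1 genes and, in epidermis, Lce6a. Lce3a was at 58.1 ± 8.7 CPM in Skin KO against 0 reads in Skin WT, and Lce3f at 16 ± 6.89 CPM in Epidermis KO against 0.0583 ± 0.0505 CPM in Epidermis WT. Lce1m was at 12.8 ± 8.37 CPM in Epidermis KO against 1173 ± 572 CPM in Epidermis WT, an 89.9-fold fall (adjusted p = 0.000128).

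Of 25 regulators of terminal differentiation 16 rose and 2 fell in skin (median 0.79), and 8 rose and 8 fell in epidermis (median 0.20). With Skin KO 2 as the only KO library fewer of the 25, and fewer of all genes, were called in skin. Ppard, a nuclear receptor, rose 2.33-fold in skin (adjusted p = 0.000546) and 2.78-fold in epidermis (adjusted p = 5.88e-05). Elf3, an epithelial ETS factor, was at 37.8 ± 12.3 CPM in Skin KO against 0.461 ± 0.343 CPM in Skin WT. Junb, a subunit of AP-1, was at 264 ± 11.1 CPM in Skin KO against 110 ± 10.2 CPM in Skin WT (adjusted p = 0.000425), and at 465 ± 76.6 CPM in Epidermis KO against 1724 ± 233 CPM in Epidermis WT (adjusted p = 9.04e-05). The AP-1 subunits Fos, Jun, Fosl1, Fosl2 and Jund are named after their values were seen. Fosl1 rose in skin and fell in epidermis (log2 fold change 4.19 and -1.89). Jund did not pass in skin and fell in epidermis (0.02 and -1.83), and Fosl2 rose in skin and did not pass in epidermis (0.72 and 0.38). Between WT tissues Fos was 55-fold, Junb 15.3-fold and Jun 14.1-fold higher in epidermis, and Fosl2 did not pass. Fos was at 160 ± 16.7 CPM in Skin KO against 47.3 ± 11.1 CPM in Skin WT (adjusted p = 0.000629), and at 1000 ± 220 CPM in Epidermis KO against 2640 ± 284 CPM in Epidermis WT (adjusted p = 0.000668). Jun was at 119 ± 11.8 CPM in Skin KO against 113 ± 5.89 CPM in Skin WT (adjusted p = 0.318), and at 366 ± 93.9 CPM in Epidermis KO against 1624 ± 293 CPM in Epidermis WT (adjusted p = 0.00017).

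**Figure D5:**
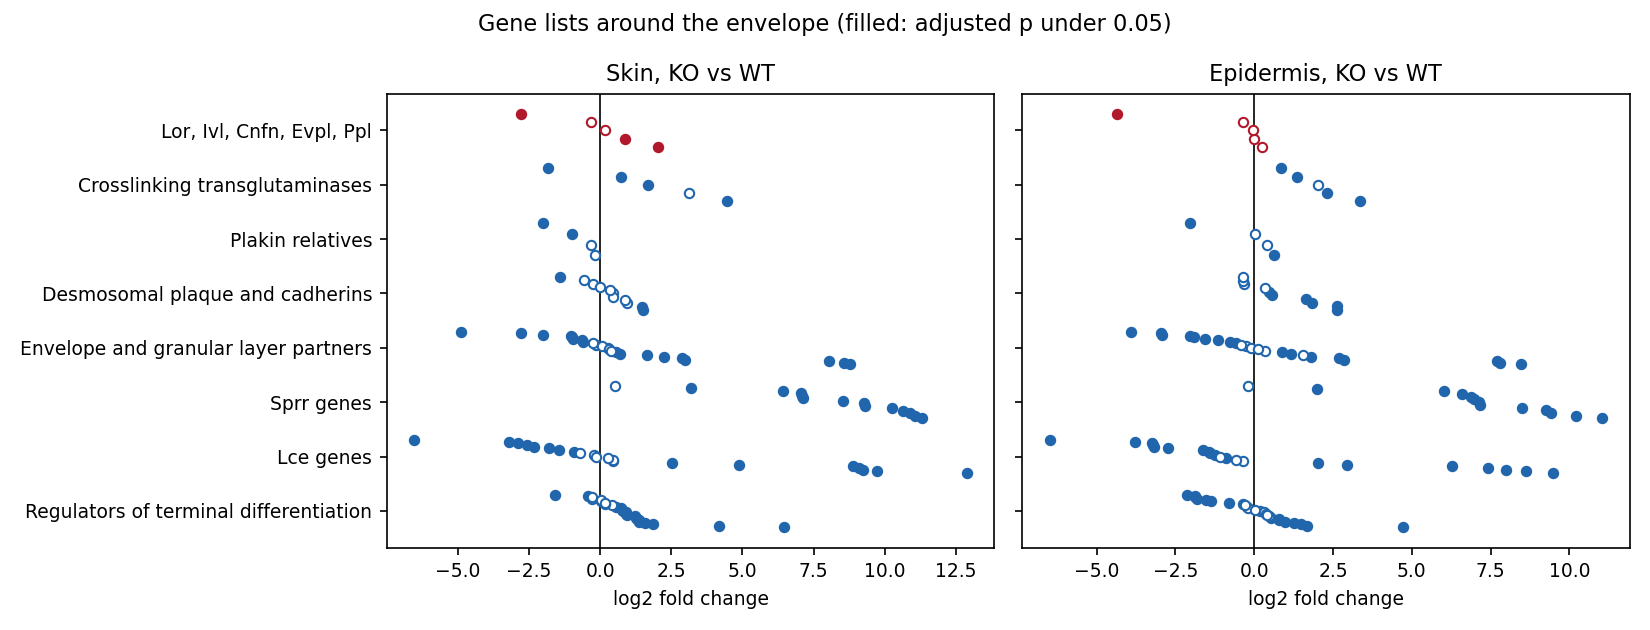
Log2 fold change, KO over WT, of each tested gene of the 5 members (red) and of 7 lists of related genes (blue), in skin on the left and epidermis on the right. Filled points passed an adjusted p of 0.05, and points of a list are spread vertically by rank. The Sprr genes lie to the right, the Lce genes split to both sides, and Lor is the leftmost member in both panels.

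Among genes outside the members, the profiles most like each were found by the root mean square difference of log2(CPM + 1) over the 12 libraries, each centred on its own mean. Closest to Lor, whose own profile has a root mean square of 1.95, were the late envelope gene Lce1a2 (0.441), Wfdc21 (0.468) and Aif1l (0.52). Lce1a2 was at 54 CPM in Skin KO and 426 CPM in Skin WT, and at 17.1 CPM in Epidermis KO and 240 CPM in Epidermis WT. Closest to Cnfn (0.844) were Nkpd1 (0.33), the exonuclease Trex2 (0.348) and Trip13 (0.352), with Trex2 at 98.9 CPM in Skin KO and 39.5 CPM in Skin WT. The flatter profiles of Ivl (0.384), Evpl (0.405) and Ppl (0.321) were matched by Pcyox1l (0.156), Tcof1 (0.197) and Pum3 (0.203), by Tbc1d10a (0.077), the maspin gene Serpinb5 (0.106) and Ppp1r13l (0.118), and by the ceramide kinase gene Cerk (0.102), Tmem170 (0.114) and Tead3 (0.122).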

How the data were processed

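RNA of whole skin and epidermis was sequenced after a stranded poly(A) protocol, as the labels state. Per the submitters' processing notes, STAR 2.5.1 and RSEM were used with mm10. The authors deposited expected counts, TPM and FPKM per gene, with lengths in bases, per the file headers. The FPKM were not used, and the annotation release is not given in the sources used here. IDs were matched without version to GENCODE M21 (47224 of 47643). Expected counts were rounded, since 8.42% to 9.98% of the values per library carried a fraction.

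The tests ran in edgeR 4.0.16 under R 4.3.3, on TMM-scaled counts after edgeR's default filter, and an adjusted p under 0.05 was called. The procedure was checked on simulated data. The SE is the size of the log2 fold change over the square root of F. DESeq2 1.42.0, limma 3.58.1 (voom, and log2(TPM + 1)), other scalings and filters, length offsets, a replicate block, the share of Y-linked counts and fits without 1 library were alternatives. The members and lists were chosen with earlier results of these data known. From each list up to 4 genes with the smallest adjusted p were named, and others are marked; a result of that choice is not reported here. Same-numbered skin libraries deviated together (r = 0.332, 0.332 and 0.238 across genes, other pairs -0.448 to 0.157). The numbers may therefore pair them, which rests on the data alone. The main tests and the permutation tests did not use this pairing, and the replicate block was fitted only as an alternative. No 2 libraries of a group were alike within counting noise (lowest chi-square per degree of freedom 13.34).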

Additional observations from a re-analysis of the deposited data

Results flagged for a closer look

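The effect of the knockout on Cnfn differed between the tissues, by -1.98 on the log2 scale as epidermis minus skin (SE 0.44, adjusted p = 0.0129 from edgeR's interaction term in 12 libraries). Cnfn was at 574, 571 and 507 CPM in Skin KO against 169, 155 and 100 CPM in Skin WT, and at 207, 209 and 150 CPM in Epidermis KO against 110, 166 and 297 CPM in Epidermis WT. With each of the 12 libraries left out in turn the difference stayed between -2.26 and -1.51 with an adjusted p of at most 0.0343, and over 9 other settings the adjusted p was at most 0.0248. Relative to the summed keratinocyte markers, which were higher in KO in skin and lower in KO in epidermis, Cnfn was 1.47 higher in Skin KO with no overlap and 0.79 higher in Epidermis KO with overlap (log2), a smaller difference between tissues that was not tested.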

How the results depend on the processing

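Lor and Cnfn in skin, Lor in epidermis and the Cnfn difference between tissues kept direction and call in the alternatives that refit the test across all genes. The scale of keratinocyte markers gave values only: Cnfn was 1.47 higher in KO in skin and 0.79 higher in epidermis, with overlap, and no test of that difference was made. Their log2 values ran from -2.88 to -2.67, 1.96 to 2.16, -4.40 to -3.61 and -2.02 to -1.86 with all libraries or by the Y-linked settings. The causes of the changes below were not tested.

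In skin, Skin KO 2 as the only KO library gave 2658 genes called, against 6780. The replicate block changed no call of a member there (Lor -2.73, Ivl 0.85, Cnfn 2.09). In epidermis the same number did not pair the libraries (r = 0.089, 0.172 and -0.09). There Cnfn, at -0.00, was 0.00 with RLE scaling, 0.01 with DESeq2, 0.10 with limma-voom, 0.14 with length offsets, 0.22 on TPM and 0.11 with the replicate block. With the share of Y-linked counts as a covariate Evpl was at 0.02 and 4540 genes were called in epidermis, against 7014. Ppl was called at -0.34 with DESeq2 and at -0.34 with the replicate block, so that 2 members were called under each.

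Between WT tissues, TPM gave -0.39 for Lor, -0.30 for Ivl, -0.19 for Cnfn, 0.28 for Evpl and -0.20 for Ppl, with 0 members called, and no scaling gave -0.03 for Lor. Between KO tissues Lor was not called with the replicate block (-1.43, adjusted p = 0.0527) or in 1 fit of 12 libraries (-1.25, adjusted p = 0.0653). Evpl was at 0.22 on TPM, and Ppl at 0.10 with no scaling, -0.10 on TPM, 0.39 with the replicate block and 0.39 in the fit of 12 libraries, none of them called. Thus 2 members were called on TPM, 2 with the replicate block and 2 in the fit of 12 libraries, and the block gave 2805 genes called, against 4227. The log2 ratio of Cnfn to Lor differed by 4.95 between the genotypes in skin when taken from TPM, against 4.81.

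With 1 library left out in turn, the ranges in which a call or sign changed were 0.62 to 1.10 for Ivl and -0.54 to -0.19 for Ppl in skin, and -0.29 to 0.46 for Cnfn and -0.12 to 0.07 for Evpl in epidermis. Between WT tissues they were -0.33 to 0.51 for Lor and -0.07 to 0.70 for Cnfn. Between KO tissues they were -1.78 to -0.91 for Lor and 0.33 to 0.46 for Ppl, with 2328 genes called without Skin KO 3 and up to 3561. The Ppl difference between tissues ran from -0.08 to 0.26, and 1393 (without Skin KO 2) to 3938 (without Skin WT 1) genes were called for that difference, against 2539. Members called between KO tissues ranged from 2 to 4. The long Cnfn transcript in epidermis changed sign to 0.10 without Epidermis WT 3, against -0.22. For single genes, lists and transcripts 1226 of 1256 values kept direction and call, 25 lost a call or a count fell, and 4 gained. At these depths 3 counts equal 0.179 to 0.246 CPM, and 3 Sprr genes and 1 Lce gene in skin, and 3 Sprr and 4 Lce genes in epidermis, had 3 counts or fewer in a group, but no member.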
